A study of Homo sapiens with 4 samples.

Results

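To examine the genes that start clotting and dissolve clots after loss of LDB1, the levels of 9 genes were followed in RNA-seq of cells labelled NB4. The genes were chosen by name: F3, TFPI, THBD, F2R, PLAU, PLAT, PLAUR, ANXA2 and S100A10. Of these 9 genes, 8 were found among the 28412 genes of the deposited table, and F3, which encodes tissue factor, was not analysed here. NB4 is an established human line from acute promyelocytic leukemia. All 4 libraries came from total RNA of this line, 2 with the control vector sh-NC (labelled as the control genotype and as receiving no treatment) and 2 with a knockdown vector against LDB1 (sh-LDB1). Per the study's methods, knockdown used a lentiviral pLKO.1 vector followed by puromycin selection, and which shRNA against LDB1 was sequenced is not given in the sources used here. The labels do not say whether replicates were separate cultures, so p-values measure only the spread between these libraries, which may be technical.

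Clotting on a cell begins when tissue factor binds factor VII, and it is checked by tissue factor pathway inhibitor and by thrombomodulin, which turns thrombin toward activation of protein C. Fibrin is then broken down by plasmin, which urokinase and tissue plasminogen activator make from plasminogen, often on cell surface receptors. Acute promyelocytic leukemia is known for a bleeding disorder in which clotting and fibrin breakdown are both overactive, and annexin A2 with its partner S100A10 is known as a plasminogen receptor of the leukemic promyelocytes.

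The level of LDB1 itself was 135.1 and 120.1 FPKM under sh-NC and 10.2 and 9.47 FPKM under sh-LDB1, which left 7.73% of the sh-NC mean. FPKM divides the reads of a gene by its length and by the depth of its library. Levels of different genes can be set side by side only as far as that length fits the transcripts present. The fitted lengths were 11714 bases for TFPI, 8824 for ANXA2 and 1543 for S100A10, and their fit to the transcripts was not tested. The libraries held 14365690 to 16652583 recovered reads, and log2(FPKM + 1) correlated across genes at 0.985 and 0.984 within groups and at 0.856 to 0.863 between them. Markers of the promyelocytic and granulocytic lineage were low for the label. Of 9 such markers 7 were found, and their summed level was 12.6 and 11.7 FPKM under sh-NC and 41.4 and 37.9 FPKM under sh-LDB1. The neutrophil elastase gene ELANE was listed at 0 except in sh-LDB1 replicate 1, where it was at 0.182 FPKM. Erythroid markers, 10 of 10 found, summed to 3924 and 4082 FPKM under sh-NC and to 377.7 and 341.9 FPKM under sh-LDB1. These levels go against the promyelocytic label, and the cells are therefore called by their group names below.

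A gene was called at an adjusted p below 0.05 together with a fold change above 2 or below 0.5 on the log2(FPKM + 1) scale, and fold changes are sh-LDB1 relative to sh-NC throughout. Of the 8 genes, 7 had a mean of at least 1 FPKM and were tested with limma and Benjamini-Hochberg adjustment over 13300 genes. Results showed that PLAUR, PLAU and S100A10 were higher in sh-LDB1 and that TFPI and F2R were lower, so 3 of 7 rose and 2 of 7 fell past the threshold. PLAU was under 1 FPKM in sh-NC and reached the mean of 1 FPKM only through sh-LDB1, where it is high. Its call therefore adds no support to the counts given here. Among all genes tested, 9.5% were called higher, 10.3% were called lower and 19.8% were called in either direction. By the adjusted p alone, with no limit on the fold change, 5 of 7 were higher and 2 of 7 were lower, against 29.9% and 37.4% of all genes and 67.4% in either direction. The median log2 fold change of the 7 genes was 0.79, and that of all genes tested was -0.08. PLAU is also among the 5 genes higher by the adjusted p and enters this median, so neither adds support. The groups did not overlap for any of the 8 genes, nor for 84.6% of all genes tested. In bulk RNA, a change in the number of cells of a type and a change in RNA per cell cannot be told apart.

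**Figure D1:**
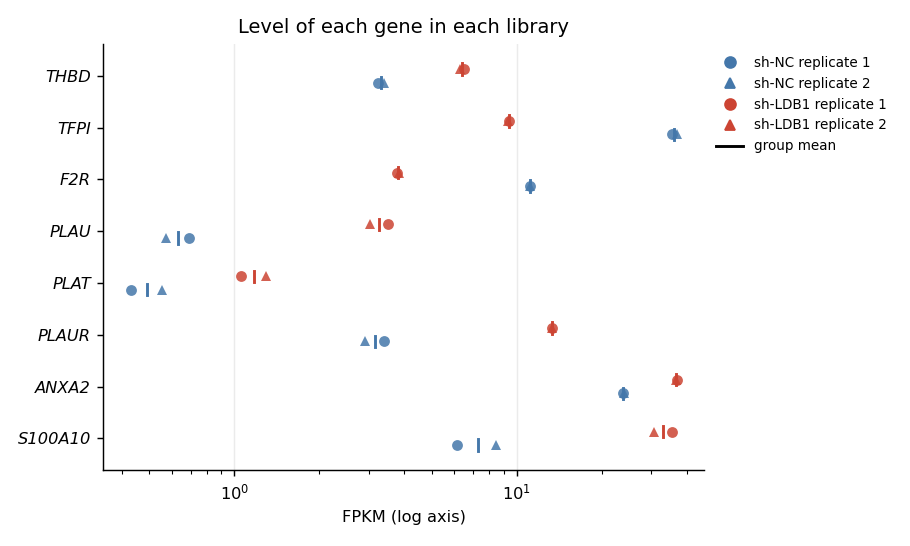
Level of each gene in each library, with FPKM on a log axis, circles and triangles for replicates 1 and 2, and a vertical bar for the mean of each group (n = 2). TFPI and F2R lie lower in sh-LDB1 than in sh-NC, the other genes lie higher, and no gene has overlapping groups.

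Some of the genes that moved are shown with the sequence before their start site. TFPI was the larger of the 2 falls, and PLAUR and PLAU encode a receptor and its ligand. PLAU reached the mean of 1 FPKM only through sh-LDB1, so its rise beside that of PLAUR adds no support. S100A10, which had the largest change of the 7 genes, was left out, and every stretch printed holds a match. The sequences are from RefSeq on GRCh38.p14, 250 bases before the start site, printed on the strand of the gene from 5′ to 3′. Both strands were searched for the GATA factor motif, spelled GATAA, for the E-box, spelled CANNTG, and for an AP-1 motif, spelled TGANTCA. Factors that bind the GATA motif and the E-box are known partners of the LDB1 and LMO2 complex. Capitals mark a match, and no matches overlap. The stretch of TFPI is at chr2:187554436-187554685 on the minus strand, that of PLAUR at chr19:43670170-43670419 on the minus strand and that of PLAU at chr10:73910360-73910609 on the plus strand. These are RefSeq start sites, and the GENCODE spans given with each gene below begin further upstream, so that each stretch lies inside the span of its gene.
TFPI: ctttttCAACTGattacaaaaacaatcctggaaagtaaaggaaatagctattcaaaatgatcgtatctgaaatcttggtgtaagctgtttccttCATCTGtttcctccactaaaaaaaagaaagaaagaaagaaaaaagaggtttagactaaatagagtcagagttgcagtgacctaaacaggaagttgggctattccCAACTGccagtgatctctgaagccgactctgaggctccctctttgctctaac
PLAUR: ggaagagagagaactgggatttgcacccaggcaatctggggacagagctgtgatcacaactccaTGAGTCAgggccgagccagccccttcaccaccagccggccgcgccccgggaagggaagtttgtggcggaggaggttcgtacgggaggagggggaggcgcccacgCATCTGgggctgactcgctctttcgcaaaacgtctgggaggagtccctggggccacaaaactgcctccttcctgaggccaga
PLAU: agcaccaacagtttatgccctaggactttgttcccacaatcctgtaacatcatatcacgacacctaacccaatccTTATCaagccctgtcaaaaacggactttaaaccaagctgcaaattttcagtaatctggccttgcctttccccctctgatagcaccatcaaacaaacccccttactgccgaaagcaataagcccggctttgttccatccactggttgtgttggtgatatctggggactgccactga
The TFPI stretch held 3 E-boxes, whose first bases lie 244, 156 and 52 bases before the start site. PLAUR held an E-box at 82 bases and an AP-1 motif at 186 bases before the start site, and PLAU held a GATA motif at 175 bases, on the opposite strand. Of 35116 promoters of the same length, 61.8% held CANNTG, 20.4% held GATAA and 6.57% held TGANTCA. Of the 8 genes, 5 had a promoter entry. The ANXA2 stretch held an AP-1 motif at 127 bases before the start site, and S100A10 held no match to these letters. A match describes the letters only, and binding was not analysed here.

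TFPI (ENSG00000003436, hg38 chromosome 2, 187464230 to 187565760, minus strand) encodes tissue factor pathway inhibitor, which blocks tissue factor with factor VII and factor X. Its level was 35.4 and 36.9 FPKM under sh-NC and 9.39 and 9.34 FPKM under sh-LDB1, from 6710, 6373, 1763 and 1656 recovered reads. The lowest sh-NC library stood well above the highest sh-LDB1 library. The mean fell from 36.1 ± 1.06 FPKM to 9.37 ± 0.0363 FPKM (SD, n = 2), which is 25.9% of sh-NC. The log2 fold change was -1.84 (SE 0.0464, limma with Benjamini-Hochberg adjusted p = 8.03e-05), larger in size than that of 96.2% of all genes tested. TFPI shares 118 exon bases with the antisense gene CALCRL-AS1, which was at 0.297 to 1.43 FPKM, and whether strand was used in counting is not given in the sources used here.

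THBD (ENSG00000178726, chromosome 20, 23045633 to 23049672, minus strand) encodes thrombomodulin, the thrombin receptor of the protein C pathway. It measured 3.22 and 3.38 FPKM under sh-NC and 6.53 and 6.29 FPKM under sh-LDB1. Both sh-LDB1 libraries were above both sh-NC libraries, 1.94-fold higher by the means of 3.30 ± 0.117 and 6.41 ± 0.172 FPKM (SD, n = 2). THBD passed the adjusted p (0.000683, limma with Benjamini-Hochberg adjustment) but not the fold threshold, with a log2 fold change of 0.79 (SE 0.0646). Its 205 to 430 recovered reads per library were fewer than those of TFPI.

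F2R (ENSG00000181104, chromosome 5, 76716126 to 76735770, plus strand) encodes PAR1, the receptor that thrombin cleaves to signal to cells. Its level was 11.2 and 11.1 FPKM under sh-NC and 3.76 and 3.84 FPKM under sh-LDB1, from 734, 666, 245 and 236 recovered reads. The replicates lay close together and the groups far apart. The mean fell from 11.1 ± 0.0338 to 3.80 ± 0.0529 FPKM (SD, n = 2), to 34.1% of sh-NC, with a log2 fold change of -1.34 (SE 0.0534, limma with Benjamini-Hochberg adjusted p = 0.000134). An antisense gene, ENSG00000225407, shares 39 exon bases with F2R and did not exceed 0.661 FPKM in any library.

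PLAU (ENSG00000122861, chromosome 10, 73909177 to 73917496, plus strand) encodes urokinase, which cleaves plasminogen to plasmin. It was at 0.691 and 0.575 FPKM under sh-NC and at 3.49 and 3.02 FPKM under sh-LDB1, from 33, 25, 165 and 135 recovered reads. In sh-NC it was thus covered by few reads, and it passed the filter on low values through its level in sh-LDB1. The means were 0.633 ± 0.0824 and 3.26 ± 0.330 FPKM (SD, n = 2), a 5.15-fold difference. On the log2(FPKM + 1) scale the change was 1.38 (SE 0.121, limma with Benjamini-Hochberg adjusted p = 0.000821). With a pseudocount of 0.01 in place of 1 it was 2.35, and when limma tested directly for a change beyond 2-fold the adjusted p was 0.137. PLAU shares 915 exon bases with the antisense gene C10orf55, which was at most at 0.0526 FPKM.

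PLAT (ENSG00000104368, chromosome 8, 42174718 to 42207709, minus strand) encodes tissue plasminogen activator, the other enzyme that makes plasmin. Its level was 0.430 and 0.553 FPKM under sh-NC and 1.06 and 1.30 FPKM under sh-LDB1. Both sh-LDB1 libraries were above both sh-NC libraries, with means of 0.491 ± 0.0875 and 1.18 ± 0.171 FPKM (SD, n = 2), a 2.40-fold difference. PLAT was under the filter on low values and was not tested. Without the filter its log2 fold change was 0.54 (SE 0.132, limma with Benjamini-Hochberg adjusted p = 0.0506), and with a filter of at least 10 recovered reads in every library the adjusted p was 0.00247. Its side of the adjusted p threshold therefore turned on the filter. With either filter the fold change was inside the fold threshold on the log2(FPKM + 1) scale, which understates changes at such low levels. The reads behind it were 23, 27, 56 and 65, or a common multiple of these.

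PLAUR (ENSG00000011422, chromosome 19, 43646095 to 43670547, minus strand) encodes the urokinase receptor, which holds urokinase at the cell surface. It measured 3.38 and 2.91 FPKM under sh-NC and 13.3 and 13.4 FPKM under sh-LDB1, from 244, 191, 952 and 903 recovered reads. The groups were far apart against the spread between replicates. The mean rose 4.25-fold, from 3.14 ± 0.337 to 13.4 ± 0.0405 FPKM (SD, n = 2), with a log2 fold change of 1.80 (SE 0.0768, limma with Benjamini-Hochberg adjusted p = 0.000152). The rise was larger in size than the change of 95.8% of all genes tested.

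S100A10 (ENSG00000197747, chromosome 1, 151982915 to 151993859, minus strand) encodes the light chain of the annexin A2 heterotetramer, which binds plasminogen. Its level was 6.17 and 8.44 FPKM under sh-NC and 35.6 and 30.6 FPKM under sh-LDB1, from 154, 192, 880 and 715 recovered reads. Of the 8 genes it had the widest spread between the sh-NC replicates in FPKM, and still no overlap between groups. The mean rose 4.53-fold, from 7.30 ± 1.61 to 33.1 ± 3.52 FPKM (SD, n = 2). The change of 2.05 on the log2 scale (SE 0.157, limma with Benjamini-Hochberg adjusted p = 0.000565) was larger in size than that of 97.5% of all genes tested and the largest of the 7 genes.

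ANXA2 (ENSG00000182718, chromosome 15, 60347134 to 60402883, minus strand) encodes annexin A2, which binds S100A10 and tissue plasminogen activator at the membrane. It measured 23.7 and 23.9 FPKM under sh-NC and 36.9 and 36.8 FPKM under sh-LDB1, from 3116 to 5210 recovered reads. Replicates were nearly equal and the groups did not overlap. The mean was 1.55-fold higher in sh-LDB1, 36.8 ± 0.0514 against 23.8 ± 0.166 FPKM (SD, n = 2). With a log2 fold change of 0.61 (SE 0.0396, limma with Benjamini-Hochberg adjusted p = 0.000371), ANXA2 passed the adjusted p and not the fold threshold. Reads of ANXA2 can be shared with its processed pseudogene ANXA2P2, which was looked at after the values were seen and was at 12.1, 13.2, 20.6 and 17.7 FPKM, so the split between them is uncertain.

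**Figure D2:**
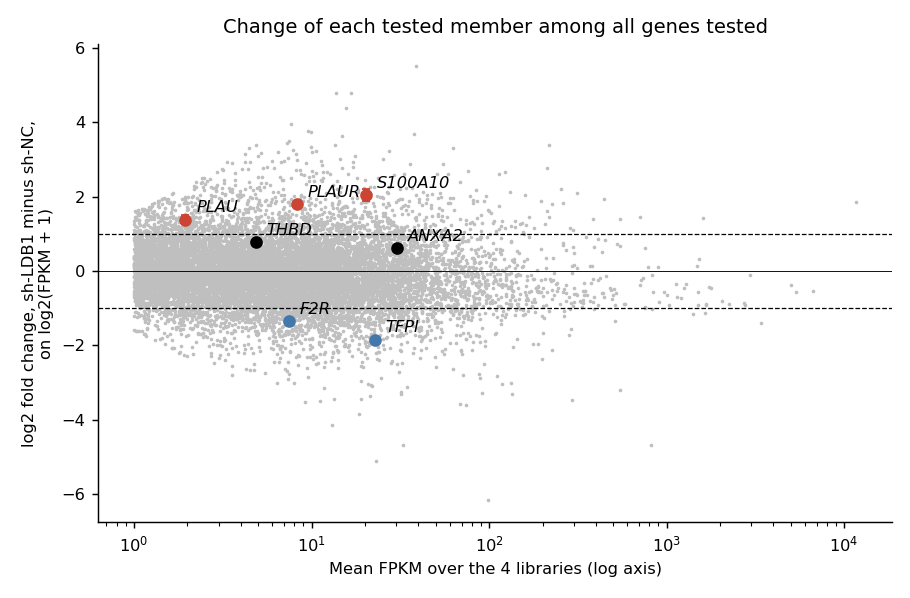
Change of the 7 tested genes (coloured or black points) among all 13300 genes tested (grey), with the mean FPKM over the 4 libraries on a log axis and the log2 fold change on log2(FPKM + 1), sh-LDB1 minus sh-NC. Dashed lines mark the fold threshold of 2, which PLAU, PLAUR and S100A10 pass upward and F2R and TFPI downward, while THBD and ANXA2 lie inside it.

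The order of the levels changed between the groups. In sh-NC the mean FPKM ran from TFPI at 36.1 through ANXA2 at 23.8, F2R at 11.1, S100A10 at 7.30, THBD at 3.30, PLAUR at 3.14 and PLAU at 0.633 to PLAT at 0.491. Among neighbours in this order, only THBD and PLAUR overlapped between libraries. In sh-LDB1 the order was ANXA2 at 36.8, S100A10 at 33.1, PLAUR at 13.4, TFPI at 9.37, THBD at 6.41, F2R at 3.80, PLAU at 3.26 and PLAT at 1.18 FPKM, and no neighbours overlapped. Ratios of FPKM within a library show these shifts directly. The order and the size of a ratio depend on the gene lengths used. The change of a ratio between groups does not, provided each gene keeps the same mix of transcripts, which was not tested. The level of S100A10 relative to its partner ANXA2 was 0.260 and 0.352 under sh-NC and 0.966 and 0.833 under sh-LDB1. PLAUR relative to TFPI was 0.0956 and 0.0788 under sh-NC and 1.42 and 1.43 under sh-LDB1. Urokinase relative to its receptor moved far less, with a PLAU to PLAUR ratio of 0.204 and 0.198 under sh-NC and of 0.262 and 0.226 under sh-LDB1. PLAT relative to PLAU was 0.621 and 0.963 under sh-NC and 0.303 and 0.429 under sh-LDB1.

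**Figure D3:**
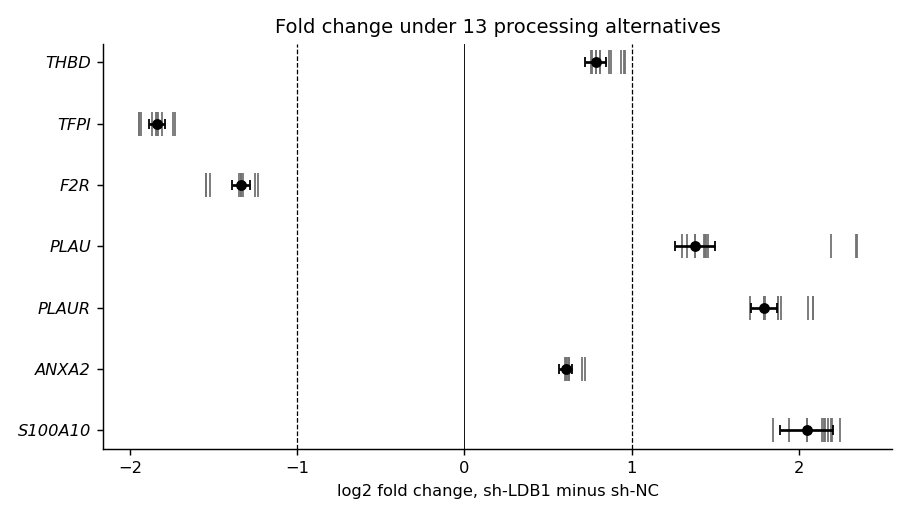
Log2 fold change of each tested gene, sh-LDB1 minus sh-NC, as reported (black point with 1 SE, n = 2 per group) and under 13 processing alternatives (grey ticks), with dashed lines at the fold threshold of 2. TFPI and F2R stay below it and PLAU, PLAUR and S100A10 above it, while THBD reaches at most 0.96 and ANXA2 at most 0.72.

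Markers of other cells were measured beside these genes, since PLAU, PLAUR, PLAT and THBD are also known from monocytes, endothelium and fibroblasts. Monocytic markers, 4 of 5 found and none at 1 FPKM or more in all libraries, summed to 0.246 and 0.262 FPKM under sh-NC and 5.73 and 5.70 FPKM under sh-LDB1. ITGAM, the integrin of monocytes and granulocytes, made up most of that sum in sh-LDB1, at 4.89 and 4.94 FPKM. Fibroblast markers, 5 of 6 found, summed to 0.307 and 0.136 FPKM under sh-NC and 2.61 and 2.35 FPKM under sh-LDB1, and endothelial markers, 5 of 6 found, to 0.749 and 0.775 FPKM and to 1.49 and 1.61 FPKM. Megakaryocytic markers, 4 of 5 found, summed to 3.13 and 2.86 FPKM under sh-NC and 3.91 and 3.42 FPKM under sh-LDB1, with PF4 at 0 in 3 of the libraries. No list had a marker at 0 in all libraries. The summed levels of the granulocytic, monocytic, fibroblast and endothelial lists were higher in sh-LDB1, as were PLAU, PLAUR and S100A10. That of the megakaryocytic list was slightly higher. Its tested markers ITGA2B and GP1BA did not pass the test (limma with Benjamini-Hochberg adjusted p = 0.351 and 0.365). The erythroid list was lower, as were TFPI and F2R. With groups apart for 84.6% of all genes tested, a shared direction does not link a list to these genes. Within the endothelial list KDR, PECAM1 and TIE1 were higher and ESAM and TEK lower, all under 1 FPKM. Within the granulocytic list CEBPE was at 1.55 and 1.27 FPKM under sh-NC and at 0.924 and 0.340 FPKM under sh-LDB1 and did not pass the test (limma with Benjamini-Hochberg adjusted p = 0.0810). The part of these cell types in the results was not tested.

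Other genes of coagulation, fibrinolysis and thrombin signalling were read from a list of 46 genes, of which 31 were found and 15 were tested. By limma with Benjamini-Hochberg adjustment 4 of the 15 rose and 4 fell past the threshold, beside 9.5% and 10.3% of all genes tested, or 19.8% in either direction. VTN and LRP1 passed the filter on low values only through sh-LDB1, and F12 only through sh-NC, the groups where they are high. Their calls add no support to the counts given here. The median log2 fold change of the 15 was 0.62, beside -0.08 for all genes. VTN, LRP1 and F12 enter this median too, so it adds no support either. Of 5 coagulation factors and cofactors tested, 2 rose and 1 fell. Of 3 coagulation inhibitors and protein C genes none passed the fold threshold, although PROS1 and PROCR passed the adjusted p and were higher. Among 6 genes of plasminogen, its inhibitors and its receptors, 2 rose and 2 fell, and the 1 other protease-activated receptor tested, F2RL3, fell.

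Of the genes of plasminogen, its inhibitors and its receptors, VTN and LRP1 rose and SERPINI1 and MRC2 fell. Both VTN and LRP1 were under 1 FPKM in sh-NC and passed the filter on low values only through sh-LDB1, where they are high, so their calls add no support to the count. VTN, which encodes the adhesion protein vitronectin, a ligand of the urokinase receptor, rose from 0.204 and 0.168 FPKM under sh-NC to 3.93 and 3.43 FPKM under sh-LDB1, with only 8 and 6 recovered reads under sh-NC. LRP1, an endocytic receptor that clears plasminogen activators from the cell surface, rose from 0.362 and 0.267 FPKM to 5.74 and 5.44 FPKM (SE of the log2 fold change 0.102, limma with Benjamini-Hochberg adjusted p = 0.000154). PLAU, VTN and LRP1 were each under 1 FPKM in sh-NC and passed the filter only through sh-LDB1. Their shared direction with PLAUR is therefore given as values and adds no support. SERPINI1, which encodes neuroserpin, an inhibitor of tissue plasminogen activator, fell from 5.83 and 5.47 FPKM to 1.26 and 1.61 FPKM. MRC2, a receptor that associates with the urokinase receptor, fell from 11.6 and 10.5 FPKM to 3.20 and 3.59 FPKM. The log2 fold changes of these genes were 1.98 for VTN, 2.33 for LRP1, -1.45 for SERPINI1 and -1.45 for MRC2. With a pseudocount of 0.01 those of the genes low in sh-NC were larger, at 4.24 for VTN and 4.12 for LRP1, and a limma test for a change beyond 2-fold did not call SERPINI1.

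Among the clotting factors, GGCX, the carboxylase that vitamin K dependent factors need, rose from 4.47 and 3.86 FPKM to 17.3 and 16.2 FPKM (log2 fold change 1.78, SE 0.0816, limma with Benjamini-Hochberg adjusted p = 0.000166). P4HB, a protein disulfide isomerase that acts on tissue factor among many other proteins, rose from 100.04 and 99.6 FPKM to 349.6 and 358.6 FPKM, with a log2 fold change of 1.82. F12, the contact factor XII gene, was at 2.12 and 2.62 FPKM under sh-NC and at 0.834 and 0.453 FPKM under sh-LDB1. It passed the filter on low values only through sh-NC, where it is high, so its call adds no support to the count. Its log2 fold change of -1.04 lay close to the threshold and was -0.93 without sh-NC replicate 2 and -0.87 without sh-LDB1 replicate 2, where it was not called, and -1.92 with a pseudocount of 0.01. VKORC1, which recycles vitamin K, stood at 3.64 and 0.990 FPKM under sh-NC and 5.70 and 6.64 FPKM under sh-LDB1 and did not pass the test (limma with Benjamini-Hochberg adjusted p = 0.0552). Its lowest value was in sh-NC replicate 2. The log2 fold change of 1.23 became 1.85 without sh-NC replicate 1 (limma adjusted p = 0.00288) and 0.62 without sh-NC replicate 2 (limma adjusted p = 0.0226). VKORC1 was named after its values were seen.

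Among the inhibitors of clotting, PROS1, which encodes protein S, the cofactor of activated protein C and of TFPI, was at 13.6 and 14.1 FPKM under sh-NC and 22.6 and 23.7 FPKM under sh-LDB1. Like THBD it passed the adjusted p (0.000487, limma with Benjamini-Hochberg adjustment) and not the fold threshold, with a log2 fold change of 0.70. PROCR, the receptor of protein C, also named after its values were seen, was at 5.79 and 5.72 FPKM under sh-NC and at 10.97 and 11.03 FPKM under sh-LDB1, with a log2 fold change of 0.83. Thus THBD, PROCR and PROS1 of the protein C pathway were each less than 2-fold higher, whereas TFPI was lower. PROC, which encodes protein C itself, was under the filter on low values and was not tested. It was at 0.0495 and 0.136 FPKM under sh-NC and at 0.525 and 1.17 FPKM under sh-LDB1, from 2, 5, 21 and 44 recovered reads. ENO1, an enolase that also serves as a plasminogen receptor, was the most abundant tested gene of the list, at 602.7 and 584.8 FPKM under sh-NC and 915.7 and 911.0 FPKM under sh-LDB1, and its log2 fold change of 0.62 was inside the fold threshold. F2RL3, which encodes the thrombin receptor PAR4, fell from 9.11 and 7.89 FPKM to 1.40 and 1.88 FPKM, with a log2 fold change of -1.85, beside the fall of F2R to 34.1% of sh-NC.

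**Figure D4:**
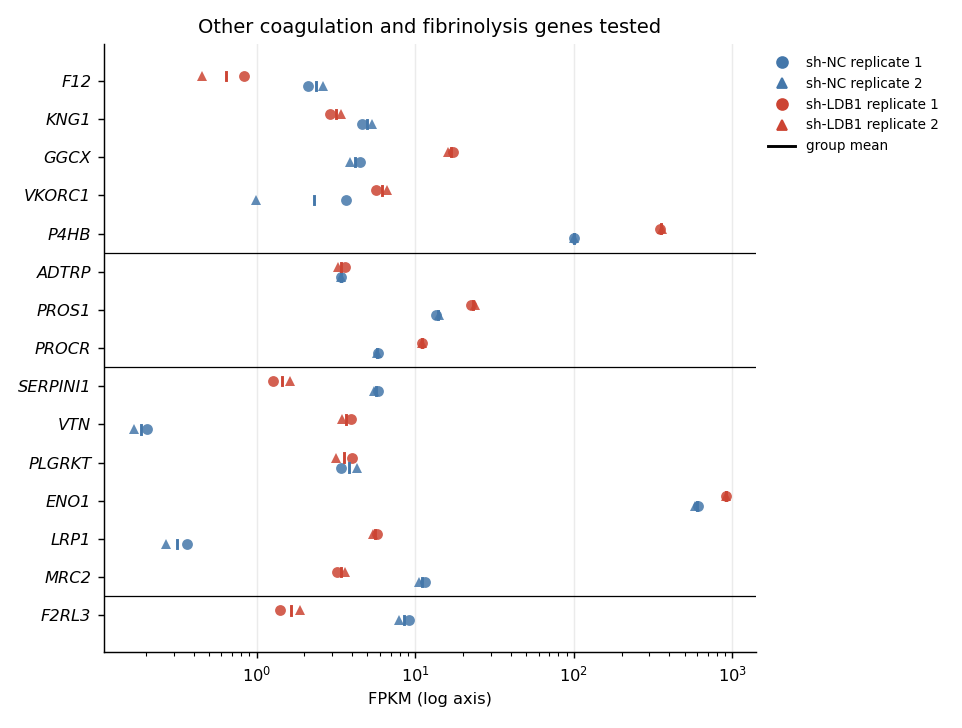
Level of the 15 other coagulation and fibrinolysis genes tested, with FPKM on a log axis, circles and triangles for replicates 1 and 2 and a vertical bar for the mean of each group (n = 2), and horizontal lines between the sublists. VTN and LRP1 show the widest upward gaps, F2RL3 shows the widest downward gap, and ADTRP and PLGRKT have overlapping groups.

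The genes whose pattern over the 4 libraries was most like that of TFPI, the tested gene with the smallest adjusted p, were AHCY, NUP155 and SLC25A37. Likeness was the Euclidean distance between log2(FPKM + 1) values, each centred on its own mean, and it was 0.0165 for AHCY, 0.0309 for NUP155 and 0.0377 for SLC25A37. AHCY, an enzyme of methionine metabolism, was at 72.6, 74.6, 19.7 and 19.8 FPKM under sh-NC replicates 1 and 2 and sh-LDB1 replicates 1 and 2. NUP155, a nuclear pore protein, was at 20.0, 20.4, 5.01 and 4.87 FPKM in the same order. SLC25A37, the mitochondrial iron carrier of erythroid cells, was at 115.8, 117.4, 32.5 and 32.4 FPKM. With 4 libraries in 2 groups, such a distance mostly measures the size of the difference between groups.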

How the data were processed

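RNA-seq was available for 2 sh-NC and 2 sh-LDB1 libraries, grouped by the sample labels. The authors mapped the reads with HISAT2 2.0.5 to hg38, per the submitters' processing notes, called changes with DESeq2 and deposited FPKM per gene and library. The counting tool, annotation and use of strand are not given in the sources used here. Every value column was matched to a library by its name, with 0 left over.

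The comparison used limma 3.58.1 (R 4.3.3; eBayes, trend) on log2(FPKM + 1), without a replicate block, for the 13300 of 28412 genes whose mean reached 1 FPKM, with Benjamini-Hochberg adjustment. On this scale, changes of genes near or under 1 FPKM are understated. Calls needed an adjusted p below 0.05 with a fold above 2 or under 0.5. An exact permutation test of 2 against 2 libraries cannot go below p = 0.333, so none was used. Tables were made in Python 3.11.15 (numpy 2.4.6, pandas 2.3.3).

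Whole reads were recovered from the deposited FPKM with gene lengths of GENCODE release 44. Of annotated genes above 0, 98.94% came out whole in all libraries, within 0.0001 read plus 1e-08 of the reads. For 84.33% of them, fitted and annotated length differed by at most 10%. The recovery and the fit were tested on simulated data. Gene coordinates are from that annotation on GRCh38 (hg38).

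The genes and lists were chosen with earlier results of these data known. One gene of the pathway list is not reported here and enters none of its counts. The genes named were the 9 genes, LDB1, every gene of the pathway list past the threshold with its 3 most abundant tested genes, and the 3 genes nearest in pattern to the gene of smallest adjusted p. Outside this rule, VKORC1, PROCR, PROC, ADTRP, PLGRKT, ANXA2P2, the antisense genes and single markers were named after their values were seen. Alternatives changed the pseudocount, filter, scaling, block, trend, test and fold threshold or left out each library. One scaling, by the median of ratios over genes of at least 1 FPKM, was added after seeing the data.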

Additional observations from a re-analysis of the deposited data

How the results depend on the processing

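The log2 fold changes of the 7 tested genes kept their direction and their side of an adjusted p of 0.05 in limma under each of 13 alternatives, with ranges of -1.95 to -1.73 for TFPI, 0.76 to 0.96 for THBD, -1.55 to -1.24 for F2R, 1.30 to 2.35 for PLAU, 1.71 to 2.09 for PLAUR, 1.85 to 2.25 for S100A10 and 0.60 to 0.72 for ANXA2. Without a fold threshold 5 of the 7 genes were higher in place of 3, and 7 genes of the pathway list in place of 4. A limma test for a change beyond 2-fold called 2 of the 7 genes higher, without PLAU, and 2 genes of the pathway list lower in place of 4. Leaving out each library in turn gave 3 genes higher and 2 lower of the 7, and 4 to 5 higher and 3 to 4 lower of the pathway list. F12 was not called without sh-NC replicate 2 or without sh-LDB1 replicate 2. With a replicate block the counts were 3 higher and 2 lower of the 7 genes, and 5 higher and 4 lower of the pathway list, VKORC1 being the added gene. Deviations of same-numbered libraries had a correlation of 0.0196, so little shared shift by replicate number was seen. With 2 libraries per group this cannot show whether they were prepared in pairs, which the labels do not say. Scaling moved the median log2 fold change of all genes from -0.08 to 0.02 by total reads and to 0.0045 by the median of ratios, and with both scalings VKORC1 was called and F12 was not. The filter decided on which side of an adjusted p of 0.05 PLAT lay, but not its call. Its log2 fold change on log2(FPKM + 1) was 0.54, a scale that understates changes of genes this low, and its means differed 2.40-fold. A filter of at least 10 recovered reads removed VTN and called VKORC1 (limma adjusted p = 0.0269). Depth limits PLAU and PLAT most among the 8 genes, with 25 recovered reads, and 23 or a multiple of it, in their lowest libraries.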
